A study of Mus musculus with 36 samples.

Results

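Early thymic progenitors with high Flt3 (labelled ETPFlt3hi, here ETP) were compared with B cell progenitors (labelled Pro_B, here pro-B). The comparison used the 3 ETP arrays numbered 4 to 6 and the 3 pro-B arrays numbered 1 to 3, which are 6 of the 36 arrays of the study. They were chosen by their titles, because these ETP arrays were normalized together with the pro-B arrays and the other ETP arrays were not. The study profiled sorted blood and thymus progenitors on a one-colour mouse expression array. ETP and pro-B cells share their labels otherwise: strain C57BL6, an age of 1 week, a sex label naming males and females, and no genetic change or treatment. No tissue is given for these 6 arrays. The series' design text calls the replicates biological, and nothing in the labels says how many animals each array stands for. The p-values therefore measure the spread between arrays of the same population. That spread was pooled over these 6 arrays and the 15 others normalized with them. The 15 other arrays normalized with them cover stem cells of the blood (HSC, sorted as LSKFlt3-CD48-CD150+), the population LSKFlt3hi IL7R+ (here LSK), common lymphoid progenitors (CLP), DN3 thymocytes and early thymic progenitors titled adult.

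ETP are the earliest cells found in the thymus, and they can still give rise to T cells and to several other blood lineages while they respond to Notch ligands on the thymic epithelium. Pro-B cells are already set on the B cell fate. In them Tcf3, Ebf1 and Pax5 act in sequence to turn on the parts of the pre-B receptor, and the recombinase made by Rag1 and Rag2 joins the gene segments of the immunoglobulin heavy chain. The comparison therefore sets a progenitor with several open fates beside one that is restricted to a single lineage.

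All values are levels on the log2 scale, so a difference of 1 is 2-fold, and differences are ETP minus pro-B. Array medians lay between 5.84 and 5.95 in the 21 arrays normalized together and between 5.12 and 5.22 in the 15 arrays of the other set. Each of the 6 arrays correlated best with its own population. The third pro-B array stood closer to ETP than the others did, with a mean correlation of 0.958 with the ETP arrays, against 0.945 and 0.948 for pro-B 1 and 2. It lay on the ETP side of the midpoint between the population means for 73 of the called genes, against 8 for pro-B 1 and 14 for pro-B 2. Counts below are given with and without it where they differ by over 1.5 times. The labelled cell types were checked against their markers. Kit, Cd44, Notch1, Gata3 and Ccr9 were all higher in ETP, and Ebf1, Pax5, Cd79a, Cd79b, Vpreb1, Igll1, Rag1 and Blnk were all lower. Tcf7 was not analysed here.

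Of 18193 genes, 957 (5.26%) were called, with an adjusted p under 0.05 and a difference of at least 1. Higher in ETP were 495 genes (2.72%), and lower were 462 (2.54%). The counts of gene lists below stand beside these shares of all genes. Over the 34945 probe sets that name 1 gene, 1728 (4.94%) were called. The arrays of the populations did not overlap for 946 of the 957 called genes, beside 30.5% of all genes whose arrays did not overlap. The median difference was 1.52 among the higher genes and 1.36 in size among the lower ones, and in each direction 49 genes differed by at least 3. Without pro-B 3 the count was 568 higher and 650 lower, and 889 of the 957 calls were shared. The median difference over all genes was -0.08.

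**Figure D1:**
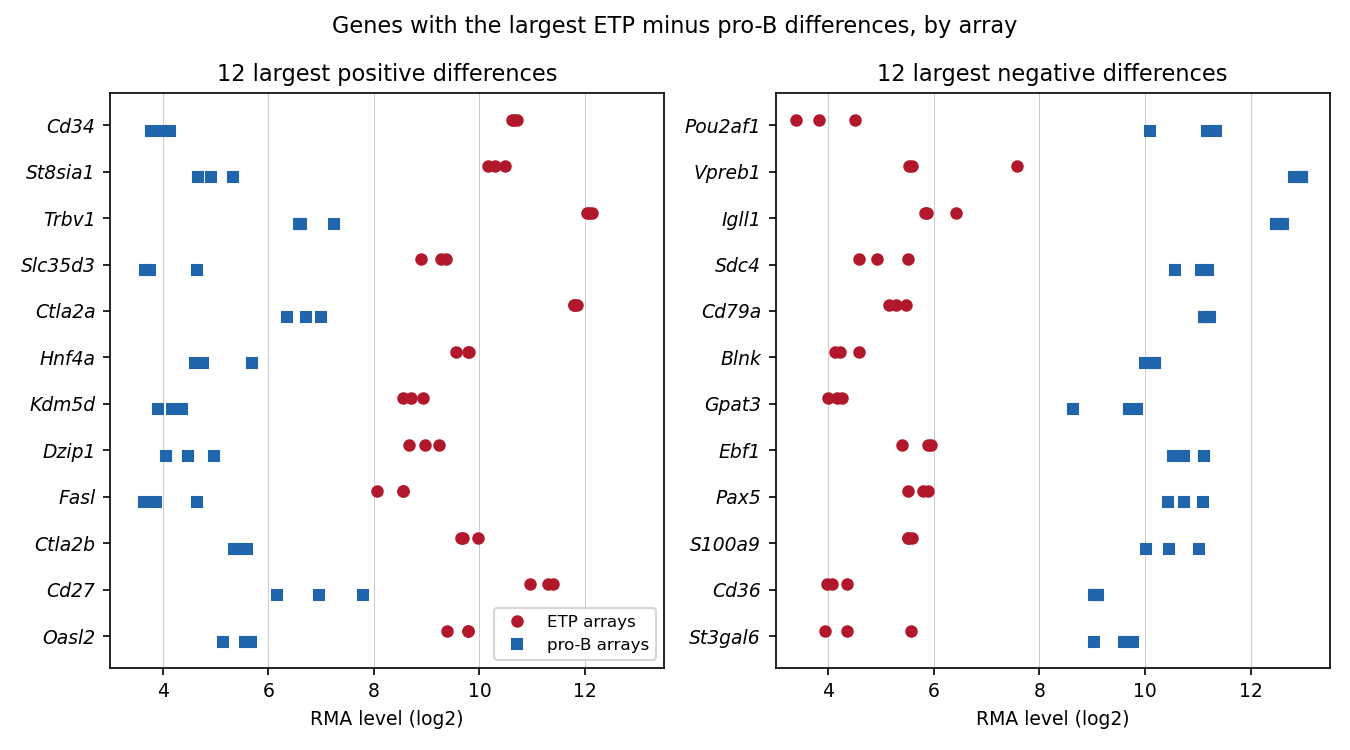
RMA levels (log2, horizontal axis) of the 12 genes with the largest positive and the 12 with the largest negative ETP minus pro-B difference among called genes whose arrays did not overlap, with a point for each array (red circles ETP, above; blue squares pro-B, below). Cd34 lies between 10.61 and 10.71 in ETP and between 3.79 and 4.14 in pro-B, and Igll1 between 5.83 and 6.42 in ETP and between 12.47 and 12.62 in pro-B.

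The largest positive difference was that of Cd34, the surface sialomucin of immature blood cells. Cd34 read 10.61, 10.65 and 10.71 in the ETP arrays, against 3.99, 3.79 and 4.14 in the pro-B arrays, a difference of 6.68 ± 0.18 (SE; limma adjusted p = 7.0e-15). The sialyltransferase St8sia1, which makes the ganglioside GD3, followed at 10.17, 10.30 and 10.49 in ETP and 4.67, 4.91 and 5.33 in pro-B (5.35 ± 0.23, adjusted p = 7.4e-12). Neither gene overlapped between the populations. The probe set annotated as Trbv1, a variable segment of the T cell receptor beta locus, read 12.13, 12.04 and 12.08 in ETP, against 6.62, 7.24 and 6.58 in pro-B, and averaged 12.08 in DN3 thymocytes. Slc35d3, a nucleotide sugar transporter relative, differed by 5.15 ± 0.28 and Hnf4a, a nuclear receptor best known from liver and gut, by 4.70 ± 0.38. Hnf4a read 9.56, 9.81 and 9.79 in ETP and 5.69, 4.62 and 4.75 in pro-B. Ctla2a and Ctla2b, neighbouring and closely related protease inhibitor genes whose signals may not be separable, were higher by 5.13 ± 0.20 and 4.30 ± 0.24. Cd27, a costimulatory receptor of the TNF receptor family, was higher by 4.25 ± 0.29. Dzip1, a gene of cilium assembly, was higher by 4.45 ± 0.31, while its other probe sets differed by between 0.32 and 1.33. Fasl, the Y-linked gene Kdm5d (4.58 ± 0.71) and the interferon-induced gene Oasl2 (4.19 ± 0.21) complete the 12 largest.

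Among the 12 largest negative differences, 7 belong to genes of the B cell programme described next, namely Pou2af1, Vpreb1, Igll1, Cd79a, Blnk, Ebf1 and Pax5. The others have wider roles. Sdc4, a cell surface proteoglycan, read 4.59, 4.93 and 5.52 in ETP, against 11.06, 11.20 and 10.57 in pro-B (-5.93 ± 0.41, adjusted p = 6.7e-09). Gpat3, an enzyme of triglyceride synthesis, differed by -5.25 ± 0.38, and the fatty acid receptor Cd36 by -4.94 ± 0.24. Cd36 read 4.06, 4.36 and 3.98 in ETP and 9.11, 9.03 and 9.09 in pro-B. St3gal6, another sialyltransferase, differed by -4.85 ± 0.33, so that St8sia1 and St3gal6 differed in opposite directions. The calprotectin subunit S100a9 differed by -4.96 ± 1.11 and is taken up with the granulocyte markers.

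B lineage transcription factors were low in ETP. Of 15 measured, 11 were lower, none was higher, and the median difference of the list was -3.23. Pou2af1, the octamer coactivator of B cells, read 3.82, 3.38 and 4.51 in ETP and 10.09, 11.17 and 11.34 in pro-B, which is the largest difference of the comparison in either direction (-6.96 ± 0.53, adjusted p = 2.4e-08). Ebf1, which opens B cell genes, read 5.39, 5.88 and 5.94 in ETP, against 11.12, 10.75 and 10.53 in pro-B (-5.06 ± 0.20, adjusted p = 2.8e-12). Pax5, which holds cells in the B lineage, read 5.89, 5.52 and 5.80 in ETP, against 10.74, 11.10 and 10.44 in pro-B (-5.02 ± 0.39, adjusted p = 3.3e-08). For these 3 genes the populations were far apart in every array. The Ets factor Spib differed by -4.51 ± 0.29, Lef1 by -3.93 ± 0.21 and the Ikaros relative Ikzf3 by -3.30 ± 0.39. Foxo1, which acts on Rag gene expression in early B cells, differed by -3.29 ± 0.22 and Irf4 by -3.23 ± 0.31. Bach2, Ets1 and Tcf3 were also lower, by -2.10, -1.87 and -1.56. The 4 factors that were not called were Bcl11a, Zfp318, Pou2f2 and Ikzf1, with differences of -0.40, -0.24, 0.14 and 0.18. Pou2f2 encodes an octamer-binding partner of the Pou2af1 protein, and it averaged 6.2 in ETP and 6.1 in pro-B.

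The pre-B receptor is the signalling complex of the immunoglobulin heavy chain, the surrogate light chain and the Cd79 subunits. Of 13 measured genes for it and its signalling, 11 were lower in ETP and none was higher (median difference -2.18). The surrogate light chain genes stood out by level. Igll1 read 6.42, 5.86 and 5.83 in ETP, against 12.47, 12.52 and 12.62 in pro-B (-6.50 ± 0.22, adjusted p = 3.3e-13). Vpreb1 read 5.52, 7.58 and 5.59 in ETP, against 12.82, 12.98 and 12.97 in pro-B (-6.69 ± 0.51, adjusted p = 2.2e-08). ETP 5 was about 2 units above the other ETP arrays for Vpreb1, and Vpreb1 has a near-identical copy, Vpreb2, whose signal may share its probes. The signalling subunits Cd79a and Cd79b differed by -5.88 ± 0.44 and -3.85 ± 0.22. The adaptor Blnk, which links the receptor to calcium signalling, averaged 4.31 ± 0.25 in ETP and 10.13 ± 0.11 in pro-B (SD, n = 3 each; difference -5.82 ± 0.35, adjusted p = 1.0e-09). Vpreb3, Ighm, Fcrla, Blk, Pik3ap1 and Syk were lower by between -3.46 and -1.22. Plcg2 and Btk, an effector enzyme and a kinase shared with myeloid cells, differed by -0.10 and -0.64 and were not called.

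Short upstream sequences of 6 called genes are shown because they hold the letters of sites known for EBF factors, octamer factors and the interferon response. They cover the 150 bases before the annotated transcription start, read 5′ to 3′ on the gene's strand, from RefSeq on GRCm38.p6, and capitals mark the motif match. Foxo1 (chr3:52268187-52268336, plus strand) and Cd22 (chr7:30879029-30879178, minus strand) hold the EBF palindrome, which is the core CCCNNGGG between a T and an A, with matches starting 92 and 49 bases before the start. Blnk (chr19:40994222-40994371, minus strand) and Vpreb3 (chr10:75948150-75948299, plus strand) hold the octamer ATGCAAAT, on its other strand, starting 130 and 45 bases before. Ifit1 (chr19:34640739-34640888, plus strand) and Rsad2 (chr12:26456453-26456602, minus strand), which were higher in ETP, hold the interferon response letters, GAAA followed after 2 free bases by GAAA, on the other strand, Ifit1 at 2 places (104 and 85 bases before) and Rsad2 at 120 bases before.
Foxo1: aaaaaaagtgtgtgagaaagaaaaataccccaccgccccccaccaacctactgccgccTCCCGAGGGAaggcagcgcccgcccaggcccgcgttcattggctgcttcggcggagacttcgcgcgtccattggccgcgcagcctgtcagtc
Cd22: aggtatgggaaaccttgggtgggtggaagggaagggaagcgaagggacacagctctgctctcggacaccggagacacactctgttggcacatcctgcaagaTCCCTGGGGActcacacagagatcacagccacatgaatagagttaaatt
Blnk: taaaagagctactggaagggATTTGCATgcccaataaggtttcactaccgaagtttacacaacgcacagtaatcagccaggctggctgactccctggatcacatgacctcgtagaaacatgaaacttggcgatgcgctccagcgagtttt
Vpreb3: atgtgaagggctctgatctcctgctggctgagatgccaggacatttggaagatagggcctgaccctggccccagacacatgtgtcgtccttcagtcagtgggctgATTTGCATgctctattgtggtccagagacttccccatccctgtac
Ifit1: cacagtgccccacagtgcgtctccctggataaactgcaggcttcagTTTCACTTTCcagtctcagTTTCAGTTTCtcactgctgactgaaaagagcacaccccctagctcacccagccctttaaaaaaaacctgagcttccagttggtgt
Rsad2: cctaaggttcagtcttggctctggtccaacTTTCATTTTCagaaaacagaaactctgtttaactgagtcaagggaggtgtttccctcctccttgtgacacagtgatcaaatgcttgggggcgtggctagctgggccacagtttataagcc

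Across genes with a RefSeq promoter, the first listed window of 250 bases upstream was searched on both strands, in 14452 genes tested, 391 of the higher genes and 357 of the lower ones. The EBF palindrome was found in 12 of the lower genes (3.36%) and 4 of the higher ones (1.02%), beside 0.920% of all. The octamer was found in 10 of the lower genes (2.80%) and 3 of the higher ones (0.767%), beside 1.38% of all. The interferon response letters were found in 22 of the higher genes (5.63%) and 8 of the lower ones (2.24%), beside 2.63% of all. These 3 were picked from 12 motifs searched, and the shares carry no test. The 9 others were the EBF core alone, the TCF site CTTTGAA, the GATA site AGATAA, the RBPJ site TGGGAA, the Ets site GGAAGT, the PU.1 site GAGGAAGT (which contains the Ets site), the Runx site TGTGGT, the E-box CAGCTG, and the Ets-IRF composite, in which GGAA stands in place of the first GAAA and which can overlap the interferon response letters. Their shares in the higher genes were between -1.05 and 1.79 percentage points from that of all genes, and in the lower genes between -4.33 and 2.48. In the higher genes the ends of that range were the EBF core (13.6%, beside 14.6% of all) and the Ets-IRF composite (3.84%, beside 2.05%). In the lower genes they were the RBPJ site (16.8%, beside 21.1%) and the EBF core (17.1%, beside 14.6%). A match describes the letters alone. The promoters of Ebf1 and Sgk1 were among the lower genes with the interferon response letters, and those of Sdc4 and Sgk1 among the lower genes with the EBF palindrome.

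B lineage surface proteins followed the factors. Of 13 measured, 8 were lower in ETP and none was higher (median difference -1.26). Tnfrsf13c, the receptor for the B cell survival factor BAFF, read 7.86, 7.84 and 7.92 in ETP, against 10.74, 10.58 and 11.10 in pro-B (-2.93 ± 0.20, adjusted p = 5.7e-09). The inhibitory lectin Cd22 differed by -2.17 ± 0.22, and the interleukin 7 receptor chain Il7r by -2.02 ± 0.24. Il7r read 7.94, 9.08 and 8.65 in ETP and 10.69, 10.52 and 10.51 in pro-B, so ETP were lower than pro-B and above the 3.62 averaged in HSC. Its level was not particular to pro-B, averaging 10.98 in LSK, 10.73 in CLP, 10.16 in DN3 and 9.08 in adult ETP. Since IL7R is part of the LSK label, the high level in LSK follows from how those cells were defined. Il7r and the feedback inhibitor Socs2 (-2.17 ± 0.44) were the called members among 14 measured of the interleukin 7 and interleukin 2 receptor family (median difference -0.12). The kinases and transcription factors downstream did not pass the test, with Jak1, Jak3, Stat5a and Stat5b between -0.21 and 0.63.

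Of 12 measured genes of V(D)J recombination, 3 were lower in ETP and none was higher, and the list's median difference was -0.07. The recombinase gene Rag1 read 6.81, 6.86 and 7.05 in ETP, against 11.13, 11.51 and 10.93 in pro-B (-4.28 ± 0.22, adjusted p = 1.4e-10). Rag2 differed by -1.95 ± 0.56 (adjusted p = 0.028) and the end-joining ligase Lig4 by -2.86 ± 0.34 (adjusted p = 9.8e-06). The other members apart from Dntt lay between -0.53 and 0.33. Dntt, the template-free polymerase that adds bases at the joins, was high in both, at 11.21, 11.51 and 10.58 in ETP and 11.09, 11.52 and 10.75 in pro-B. Its difference was -0.02, with a 95% interval of -0.48 to 0.44.

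**Figure D2:**
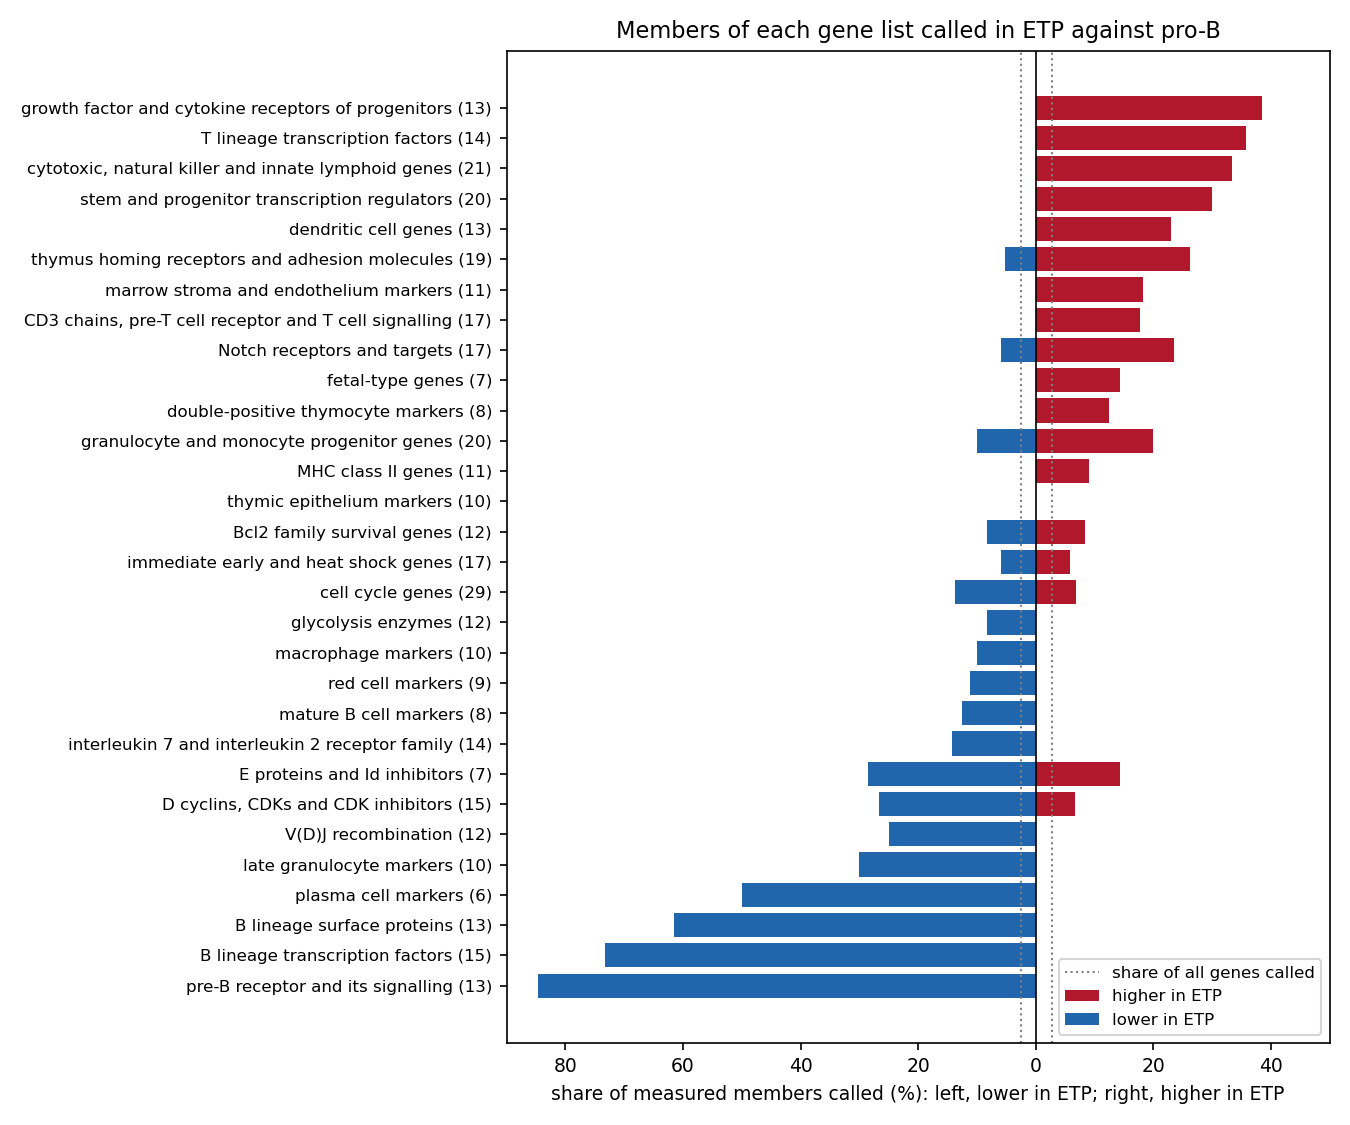
Share of the measured members (number in brackets) of each of 30 gene lists that were called in ETP against pro-B, with bars to the right for members higher in ETP, bars to the left for members lower in ETP, and dotted lines for the shares of all genes called (2.72% higher and 2.54% lower). The pre-B receptor list has 11 of 13 members lower, and the list of progenitor receptors has 5 of 13 members higher.

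T lineage transcription factors were partly raised in ETP. Of 14 measured, 5 were higher and none was lower (median difference 0.36). Lef1 and Ets1, which were lower in ETP, were counted with the B lineage factors and are not in this list. The Ikaros family member Ikzf2 averaged 8.01 ± 0.13 in ETP and 4.41 ± 0.26 in pro-B (SD, n = 3 each; difference 3.60 ± 0.23, adjusted p = 2.0e-09). Tox, a nuclear factor of T and innate lymphoid development, read 9.63, 9.68 and 9.72 in ETP and 7.03, 6.32 and 6.08 in pro-B (3.20 ± 0.34, adjusted p = 1.8e-06). Sox13, a gene of gamma delta T cells, was higher by 1.87 ± 0.23, Gata3 by 1.14 ± 0.26 and Runx3 by 1.11 ± 0.19. Gata3, which T cell development requires, read 6.58, 5.88 and 6.39 in ETP, against 4.74, 5.17 and 5.53 in pro-B. Bcl11b, which seals T commitment, was low in both, at 5.02, 5.47 and 4.81 in ETP and 4.60, 4.41 and 4.91 in pro-B, beside a mean of 12.04 in DN3. Its difference was 0.46, with a 95% interval of -0.03 to 0.94.

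Of 17 measured genes of the T cell receptor machinery, 3 were higher in ETP and none was lower, beside 2.72% of all genes called higher. The median difference was -0.11. The 3 higher genes were the adaptor Lat, Cd7 (1.35 ± 0.18) and Cd6 (1.19 ± 0.25). Lat read 8.04, 8.37 and 7.98 in ETP, against 6.33, 6.62 and 6.95 in pro-B (limma adjusted p = 1.4e-05). Cd3e averaged 4.49 in ETP and 4.60 in pro-B, and it averaged 11.46 in DN3. The pre-T cell receptor alpha gene Ptcra differed by -0.05 (adjusted p = 0.88), and it read between 3.99 and 4.45 in the ETP arrays and between 4.17 and 4.40 in the pro-B arrays.

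Of 17 measured Notch receptors and targets, 4 were higher in ETP and 1 was lower (median difference 0.46). Rgs1, an inhibitor of G protein signalling, read 9.59, 9.85 and 9.85 in ETP, against 5.93, 5.65 and 6.05 in pro-B (3.89 ± 0.38, adjusted p = 6.7e-07). The receptors themselves differed less. Notch1 read 10.97, 10.96 and 10.91 in ETP and 9.96, 9.55 and 9.33 in pro-B (1.33 ± 0.20, adjusted p = 0.00011). Notch2 was higher by 1.47 ± 0.18 and Deptor, an inhibitor of mTOR signalling, by 1.77 ± 0.27. The other probe set of Notch2 differed by 0.77 and was not called. Lfng, the glycosyltransferase that tunes Notch for its ligands, was lower in ETP at 7.46, 8.19 and 8.42, against 9.57, 9.17 and 8.86 in pro-B (-1.18, adjusted p = 0.0069). The well known targets Hes1, Dtx1, Nrarp and Il2ra had differences of -0.03, 0.46, 0.87 and 0.74 and were not called.

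Growth factor and cytokine receptors of progenitors were in part higher in ETP, with 5 of 13 measured higher and none lower (median difference 0.11). Flt3, the receptor that the ETP label names, read 10.35, 10.42 and 10.36 in ETP, against 8.66, 8.09 and 7.90 in pro-B (2.16 ± 0.27, adjusted p = 1.4e-05). Since high Flt3 is part of the ETP label, its direction follows from how those cells were defined. Kit, the stem cell factor receptor, read 9.38, 9.59 and 9.75 in ETP and 6.70, 7.89 and 7.33 in pro-B (2.26 ± 0.38, adjusted p = 0.00047). Csf1r, the receptor of macrophage growth factor, was higher by 2.03 ± 0.37. The inflammatory cytokine receptors Il1r1 and Il18r1 were higher by 3.53 ± 0.36 and 2.73 ± 0.28. Il1r1 read 7.66, 8.16 and 8.58 in ETP and 4.93, 4.23 and 4.66 in pro-B, while its other probe set differed by -0.04. The receptors of granulocyte factor, interleukin 3 and erythropoietin (Csf3r, Il3ra and Epor) differed by between -0.23 and 0.11.

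Regulators of stem and progenitor cells were higher for 6 of 20 measured genes and lower for none (median difference 0.47). Hoxa9 read 10.49, 10.81 and 10.57 in ETP, against 7.52, 7.45 and 7.38 in pro-B (3.17 ± 0.20, adjusted p = 2.6e-09). Nfe2, known from platelet and red cell precursors, was higher by 2.46 ± 0.32, Mycn by 2.24 ± 0.23, the Hoxa9 cofactor Meis1 by 2.03 ± 0.28 and Hoxa10 by 1.02 ± 0.28. Ikzf2, given above, is the sixth. Stem cell genes such as Mecom, Prdm16, Hoxb4 and Gata2 were not called, with differences between -0.14 and 0.29. Lyl1, Mef2c, Hhex and Erg, which early lymphoid cells share with stem cells, differed by between -0.63 and 0.08.

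Homing receptors and adhesion molecules were higher in ETP for 5 of 19 measured genes and lower for 1 (median difference 0.23). Besides Cd34, the chemokine receptor Ccr9, which draws cells to the thymic chemokine Ccl25, read 9.03, 9.35 and 9.40 in ETP, against 6.28, 6.17 and 6.53 in pro-B (2.93 ± 0.22, adjusted p = 1.9e-08). The integrin chain Itgb7 read 9.19, 8.87 and 9.21 in ETP and 6.66, 6.54 and 6.82 in pro-B (2.42 ± 0.17, adjusted p = 5.7e-09), while its partner Itga4 differed by -0.23. Cd44 and Itgal were higher by 1.71 ± 0.16 and 1.45 ± 0.23. S1pr1, the receptor used to leave the thymus and lymph nodes, was lower, at 4.47, 4.74 and 4.50 in ETP, against 6.08, 6.36 and 5.99 in pro-B. Ccr7 and Cxcr4, receptors also tied to thymus entry, differed by -0.50 and 0.43 and were not called.

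Cytotoxic, natural killer and innate lymphoid genes were higher in ETP for 7 of 21 measured members and lower for none (median difference 0.76). Fasl, the death ligand of cytotoxic lymphocytes, read 8.07, 8.55 and 8.55 in ETP, against 4.64, 3.87 and 3.64 in pro-B (4.34 ± 0.26, adjusted p = 8.7e-10). Tyrobp, the signalling adaptor of natural killer and myeloid receptors, read 10.85, 10.76 and 10.92 in ETP and 7.73, 8.02 and 7.48 in pro-B (3.10 ± 0.24, adjusted p = 2.8e-08). Nkg7, a granule membrane protein, read 8.37, 8.49 and 8.47 in ETP and 5.39, 5.44 and 5.73 in pro-B (2.92 ± 0.18, adjusted p = 1.2e-09). Nfil3, a factor of innate lymphoid development, was higher by 2.32 ± 0.28, Il18rap by 2.01 ± 0.26, the protease gene Ctsw by 1.36 ± 0.27 and Id2 by 1.35 ± 0.36. The killing proteins themselves were not called. Gzma, Gzmb and Prf1, the granzymes and the pore former, differed by 0.60, -0.42 and -0.25, and Eomes, Tbx21 and Ncr1, which mark mature killer cells, lay between 3.8 and 4.1 on average in each population. So the members that rose are adaptors, receptors, regulators and granule proteins along with Fasl, and no granzyme or perforin gene was called.

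Genes of granulocyte and monocyte progenitors moved in both directions, with 4 of 20 measured higher and 2 lower (median difference 0.00). Mpo, the peroxidase of primary granules, read 10.84, 10.64 and 10.37 in ETP, against 4.98, 5.91 and 8.51 in pro-B (4.15 ± 0.78, adjusted p = 0.0013), and without pro-B 3 its difference was 5.17. The other primary granule genes Elane, Prtn3 and Ctsg differed by -0.22, 0.24 and 0.53 and were not called. Cd33, a sialic acid receptor of myeloid cells, was higher by 2.41 ± 0.25, Cst7 by 1.61 ± 0.23 and Ms4a6c by 1.04 ± 0.29. Irf8, a factor that monocyte, dendritic and B cells share, read 5.92, 6.18 and 6.01 in ETP, against 9.24, 9.04 and 8.54 in pro-B (-2.90 ± 0.27, adjusted p = 3.3e-07), and Ly86 was lower by -1.27 ± 0.24. The myeloid factors Spi1 and Cebpa differed by -0.06 and 0.04, with 95% intervals of -0.50 to 0.38 and -0.51 to 0.58.

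Among 13 measured dendritic cell genes, Irf7, Bst2 and Itgax were higher in ETP, by 1.20 ± 0.18, 1.08 ± 0.15 and 1.00 ± 0.25, and none was lower (median difference 0.29). Without pro-B 1 or pro-B 2 only 1 of these calls was kept. The first 2 are also induced by interferon. Siglech, Batf3, Xcr1 and Cd209a, which mark dendritic subsets, lay between -0.47 and 0.25. Irf8, which dendritic cells share and which was counted with the granulocyte and monocyte genes, was lower in ETP by -2.90. Of 11 measured MHC class II genes, H2-DMa was higher by 1.31 ± 0.27 and none was lower (median difference 0.25), and H2-DMa lost its call without pro-B 3.

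E proteins and their Id inhibitors set the balance of lymphoid fates, and of 7 measured 2 were lower in ETP and 1 was higher (median difference -0.42). Tcf3, the E protein of early B cells, was lower in ETP at 8.80, 7.90 and 7.96, against 10.14, 10.11 and 9.08 in pro-B (-1.56 ± 0.30, adjusted p = 0.0016). The inhibitors differed in opposite directions. Id3 read 6.11, 6.16 and 5.70 in ETP and 9.45, 9.17 and 8.87 in pro-B (-3.17 ± 0.23, adjusted p = 1.0e-08), while Id2 read 7.01, 6.67 and 7.55 in ETP and 5.97, 5.60 and 5.61 in pro-B (1.35 ± 0.36, adjusted p = 0.018). The other probe sets of Id2 differed by 0.15 and 3.26, and the call was lost without ETP 6 (adjusted p = 0.094) and without pro-B 2 (adjusted p = 0.062). Tcf4 and Tcf12 differed by -0.60 and 0.06 and were not called.

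Of 15 measured D cyclins, CDKs and CDK inhibitors, 4 were lower in ETP and 1 was higher (median difference -0.26). The D cyclins split. Ccnd3 read 6.75, 7.08 and 6.77 in ETP, against 10.27, 10.36 and 10.29 in pro-B (-3.44 ± 0.32, adjusted p = 3.9e-07). Its other probe sets differed by -1.94 and 0.59, and only the first of them was called. Ccnd2 read 11.53, 11.56 and 11.55 in ETP, against 9.80, 9.82 and 10.87 in pro-B (1.38 ± 0.20, adjusted p = 0.00010). The CDK inhibitors Cdkn1a, Cdkn2c and Cdkn2d were lower by -2.89 ± 0.34, -1.78 ± 0.23 and -1.18 ± 0.18.

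Of 29 measured cell cycle genes, 4 were lower in ETP and 2 were higher (median difference -0.60), and the number lower was 9 without pro-B 3 and 7 without ETP 5. Ccne1, the G1 to S cyclin, was lower by -1.56 ± 0.21, Tyms by -1.17 ± 0.28, and the mitotic genes Plk1 and Kif11 by -1.15 ± 0.25 and -1.05 ± 0.17. The other probe set of Ccne1 differed by -0.71 and was not called. Several mitotic genes lay just under the 2-fold threshold, with Ccna2 at 10.36, 10.36 and 10.34 in ETP and 11.43, 11.30 and 11.33 in pro-B. Mki67 was high in both, at 12.35 to 12.49 in ETP and 12.64 to 12.77 in pro-B. The replication helicase genes Mcm4 and Mcm6 were higher by 1.66 ± 0.37 and 1.32 ± 0.26. Mcm4 read 10.81, 10.86 and 10.80 in ETP, against 8.07, 8.95 and 10.48 in pro-B, and without pro-B 3 it differed by 2.32. Other probe sets of Mcm4 and Mcm6 differed by -0.22 for Mcm4 and between -0.06 and 0.07 for Mcm6, so neither change was seen by a second probe set.

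**Figure D3:**
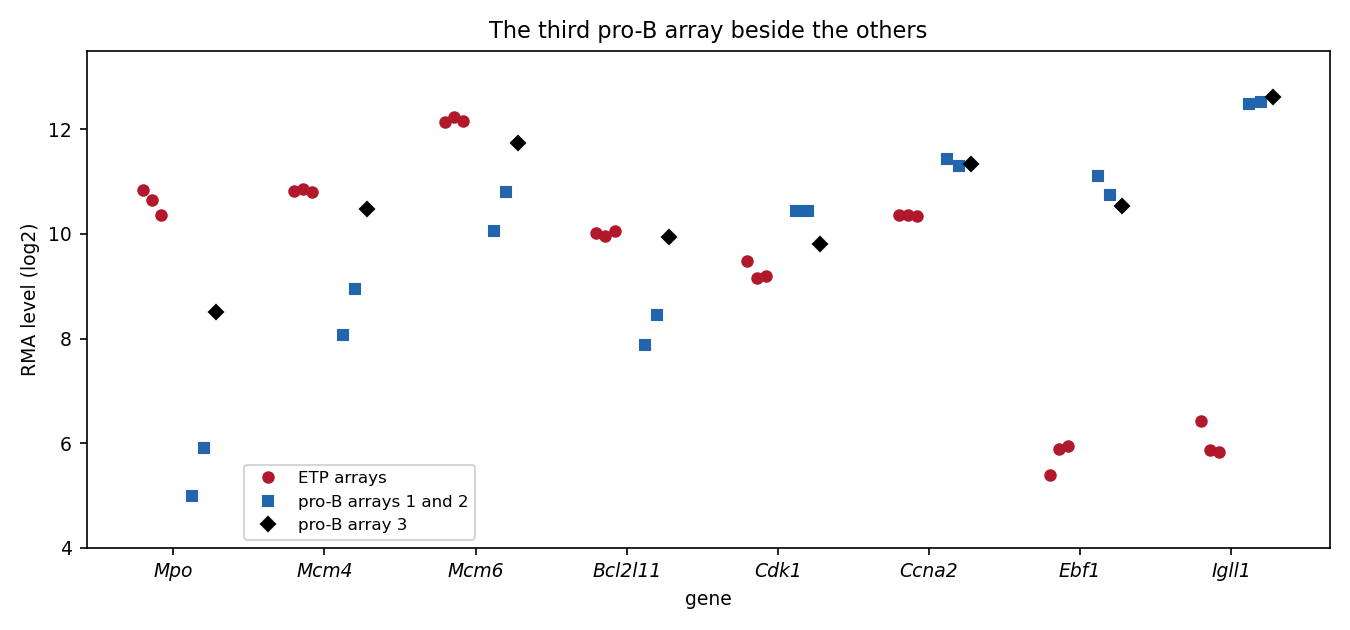
RMA levels (log2, vertical axis) of 8 genes in the 3 ETP arrays (red circles), pro-B arrays 1 and 2 (blue squares) and pro-B array 3 (black diamonds). For Mpo, Mcm4, Mcm6 and Bcl2l11 pro-B 3 lies between the ETP arrays and the other pro-B arrays, while for Igll1 it reads 12.62 beside 12.47 and 12.52.

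Among 12 measured Bcl2 family genes, Bcl2l11, the death inducer Bim, was higher by 1.26 ± 0.38 and Bak1 lower by -1.16 ± 0.22 (median difference 0.05). The other probe set of Bak1 differed by -0.38 and was not called. Bcl2l11 read 10.01, 9.97 and 10.06 in ETP, against 7.89, 8.44 and 9.93 in pro-B, so pro-B 3 almost reached the ETP arrays, and its other probe sets lay between -0.58 and 0.16. Its call was lost when any array other than pro-B 3 was left out. Of 7 measured fetal-type genes, Hmga2 was higher by 1.26 ± 0.19, and its partner genes in fetal blood, Lin28b and Igf2bp3, differed by -0.28 and 0.33 (median difference of the list -0.10). Of 12 measured glycolysis enzymes, Pfkp was lower by -1.45 ± 0.24 (median difference -0.17). Of 17 immediate early and heat shock genes, which respond to handling of cells, Ier3 was higher by 2.02 ± 0.41 and Zfp36 lower by -1.03 ± 0.29, and Fos, Fosb and Egr1 differed by -1.71, -1.46 and -1.70 without passing the test (median difference -0.44).

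Markers of cells that a sort could carry along were read as whole lists. For the granulocyte, red cell, plasma cell, macrophage and mature B cell lists every pro-B array had a higher list mean than every ETP array, and for the stroma list every ETP array had the higher one. Late granulocyte markers were lower in ETP for 3 of 10 measured. The count was 7 when the 6 arrays were fitted alone and 5 with all 36 arrays. The arrays of the 2 populations did not overlap for 8 of the 10, beside 30.5% of all genes. The mean of the list lay between 4.80 and 4.97 in the ETP arrays and between 6.34 and 7.15 in the pro-B arrays. S100a9 read 5.51, 5.58 and 5.52 in ETP, against 11.03, 10.45 and 10.01 in pro-B. S100a9 also averaged 9.56 in CLP and 8.24 in HSC. Stfa3 and S100a8 were lower by -4.16 ± 0.84 and -3.34 ± 1.01, while the granule genes Ngp and Camp differed by -1.92 and -1.48 and were not called in the fit of 21 arrays. Among red cell markers 1 of 9 was lower, Slc4a1 (-3.20 ± 0.64), and the list mean lay between 5.85 and 6.02 in ETP and between 6.76 and 6.93 in pro-B. Among plasma cell markers Mzb1, Irf4 and Sdc1 (3 of 6) were lower, by -3.35, -3.23 and -2.21 (Irf4 also counts among the B lineage factors), while Prdm1 and Xbp1 differed by -0.05 and -0.25. The list mean was 5.67 to 5.73 in ETP and 7.15 to 7.54 in pro-B. Among macrophage markers 1 of 10 was lower, C1qb, at 3.48, 3.30 and 3.19 in ETP and 7.85, 3.77 and 6.86 in pro-B, with list means of 4.67 to 4.72 in ETP and 5.03 to 5.55 in pro-B. The call of C1qb was lost without pro-B 1, and its other probe sets differed by -0.48 and -0.26 and were not called. Mature B cell markers had 1 of 8 lower, Ms4a1 (-1.26 ± 0.25), with list means of 5.61 to 5.68 in ETP and 5.72 to 6.09 in pro-B. Double-positive thymocyte markers had 1 of 8 higher, Satb1 (1.15 ± 0.20, a call lost without pro-B 1), with list means of 6.08 to 6.26 in ETP and 6.14 to 6.22 in pro-B, and Cd4, Cd8a and Cd8b1 differed by between -0.12 and 0.21. No thymic epithelium marker was called out of 10, the smallest p-values being those of Ccl25 (-0.56, adjusted p = 0.23) and Epcam (0.43, adjusted p = 0.33), and the list mean was 5.61 to 5.72 in ETP and 5.49 to 5.81 in pro-B. Of 11 stroma and endothelium markers, Pdgfrb and Igfbp4 were higher by 2.46 ± 0.22 and 1.61 ± 0.20 (the other probe set of Pdgfrb differed by 5.84), while the collagen genes Col1a1, Col1a2 and Col3a1 differed by between -0.34 and -0.10. The list mean was 6.07 to 6.29 in ETP and 5.71 to 6.01 in pro-B. RMA values have no true zero, so no marker can be read as absent. The part of such cells in the differences above was not tested, and in sorted bulk samples fewer cells of a type and less RNA per cell cannot be told apart.

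The sex-linked genes also differed, although every array carries the same sex label. The Y-linked gene Kdm5d read 8.55, 8.93 and 8.70 in ETP, against 4.18, 3.90 and 4.36 in pro-B. Eif2s3y, also Y-linked, read 7.47, 8.18 and 7.76 in ETP, against 4.49, 4.62 and 4.11 in pro-B. Uty differed by 1.35 without passing the test (adjusted p = 0.076). Xist, the X inactivation transcript of females, read 12.07, 11.97 and 12.12 in ETP and 10.28, 11.03 and 11.68 in pro-B. The part of the sex mix of the samples in other differences was not tested.

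The other populations normalized with these arrays show where each difference stands (values only, with no test). For every called gene, each population was placed on the ETP or the pro-B side of the midpoint between their means. Of the 495 genes higher in ETP, 331 (66.9%) were on the ETP side in HSC, 356 (71.9%) in LSK, 361 (72.9%) in CLP, 443 (89.5%) in adult ETP and 220 (44.4%) in DN3. Of the 462 genes lower in ETP, 98 (21.2%) were on the pro-B side in HSC, 111 (24.0%) in LSK, 74 (16.0%) in CLP, 16 (3.46%) in adult ETP and 84 (18.2%) in DN3. Thus most genes higher in ETP were on the ETP side in HSC, LSK and CLP, each taken alone. Of the 495, 261 were on the ETP side in both HSC and LSK, and 69 were on the pro-B side in both. The genes lower in ETP were low in most of the other populations. Ebf1 lay on the pro-B side in LSK and CLP, averaging 5.77 in HSC, 9.50 in LSK, 8.96 in CLP, 5.74 in ETP, 5.83 in adult ETP, 5.70 in DN3 and 10.80 in pro-B. By its means Pax5 lay on the pro-B side in LSK and on the ETP side elsewhere, averaging 5.79 in HSC, 8.56 in LSK, 7.22 in CLP, 5.74 in ETP, 5.83 in adult ETP, 5.68 in DN3 and 10.76 in pro-B. Single arrays spread widely for Pax5 in CLP, from 6.10 to 8.51, and read 8.28 to 8.92 in LSK. Rag1 averaged 11.75 in LSK, 11.36 in CLP, 6.91 in ETP, 12.65 in DN3 and 11.19 in pro-B, so that ETP and HSC were the low populations for it, along with adult ETP at 7.17. Fasl averaged 3.56 in HSC, 3.72 in LSK, 3.80 in CLP, 8.39 in ETP, 6.80 in adult ETP, 3.70 in DN3 and 4.05 in pro-B, which put both ETP populations above the other 5. Cd34 was low in DN3 as well, at 4.21, and Hoxa9 averaged 4.43 in DN3, below its 7.45 in pro-B. Mpo averaged 11.42 in LSK, 11.47 in CLP, 10.62 in ETP and 4.95 in DN3. The arrays titled adult carry an age label of 1 week like the rest, so their name and their label disagree.

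**Figure D4:**
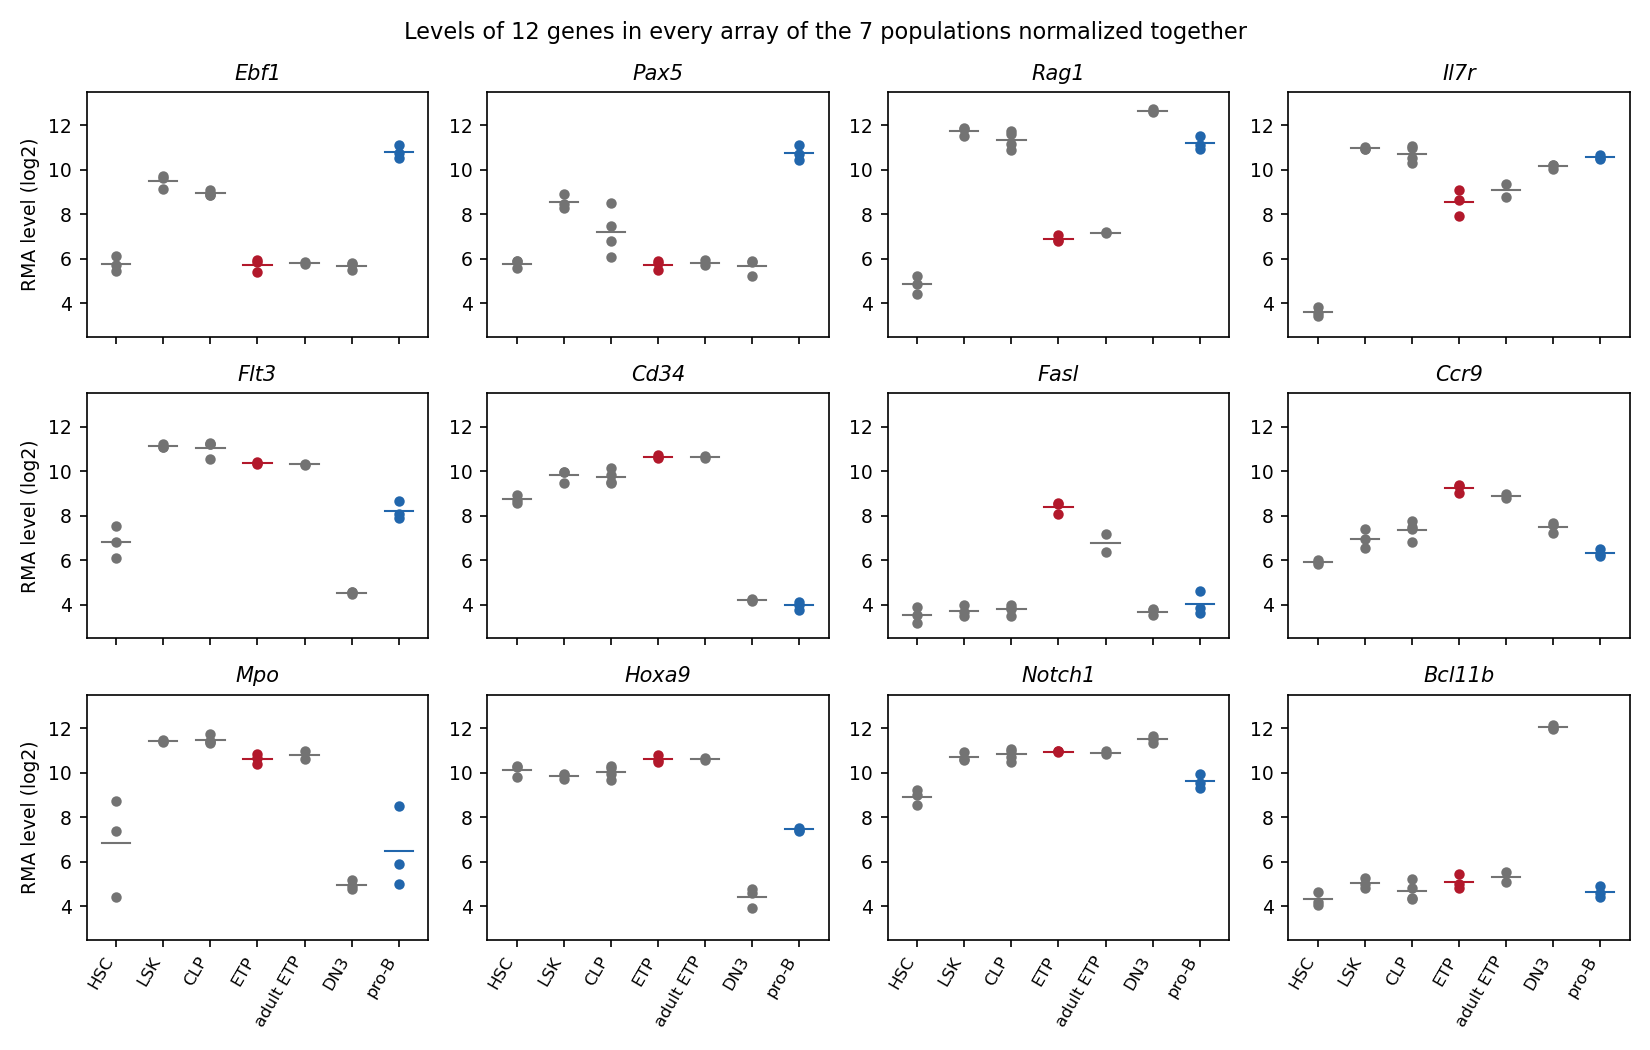
RMA levels (log2, vertical axes) of 12 genes in every array of the 7 populations normalized together, with a point for each array and a bar at each mean (red ETP, blue pro-B, grey the others). Ebf1 is near 5.7 in ETP and near 10.8 in pro-B with LSK and CLP in between, and Fasl is above 6 in ETP and adult ETP and below 5 in the other 5 populations.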

How the data were processed

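The deposited table holds log2 expression values for 45101 probe sets on 36 arrays, made by the authors with RMA (background correction, normalization between arrays and summary of probes), according to the submitters' processing notes. No log base is given, and it was read as 2 from the range of the values. RNA was extracted with Trizol, amplified and labelled with biotin, per the labels' protocols. A probe set was used when the platform annotation names exactly 1 gene for it (34945), and each gene was represented by its probe set of highest mean (18193 genes, 9010 of them with several probe sets). limma 3.58.1 (R 4.3.3, lmFit and eBayes) was fitted over the 21 arrays normalized together, so the spread is shared by 7 populations. A call needed a Benjamini-Hochberg adjusted p under 0.05 and a difference of at least 1. Python 3.11.15, numpy 2.4.6, pandas 2.3.3 and matplotlib 3.10.9 served for tables and plots. The fit was tested on simulated data.

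Members, lists and rules were chosen with earlier results of these data known. The genes named are the 12 called genes with the largest difference in each direction whose arrays did not overlap, up to 3 called members of each of 30 lists (the 2 of smallest p where no member was called), Flt3, Fasl, Ebf1 and Pax5, and further members as examples of a count. The lists hold 394 measured genes, and 34 listed genes were not analysed here. Of 44 called named genes with several probe sets, 36 had another probe set called the same way, 8 had no other called and 0 had one called the opposite way. An array has no depth, and precision is limited by the number of arrays. Alternatives covered the arrays in the fit, the probe set, the filter, the scaling, the threshold, the variance model and each array left out.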

Additional observations from a re-analysis of the deposited data

Results flagged for a closer look

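In the 4 CLP arrays, Flt3 read 10.54 in one array and 11.22, 11.23 and 11.28 in the others, so the lowest array's gap was 0.924 of the whole range. Flt3 was among 16 genes read across populations in this way, and chance alone sets a value apart in about 1 of 20 such groups. CLP enter no comparison here except as context. Groups of 3, which include ETP and pro-B, were not examined for this.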

How the results depend on the processing

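No paired analysis was possible because the ETP arrays used carry the replicate numbers 4 to 6 and the pro-B arrays 1 to 3. The main counts of 495 genes higher and 462 lower in ETP became 960 and 1203 with no fold threshold, 246 and 190 when limma's treat tested against 1.5-fold, and 915 and 813 when each of 34945 probe sets was its own feature. Leaving out each array gave 441 to 568 higher and 349 to 650 lower, with both highest counts without pro-B 3. Quantile normalization gave 536 and 385, which raised the share of higher calls to 58.2%, and the mean of all probe sets gave 377 and 382. Among the lists, late granulocyte markers lower in ETP went to 7 with the 6 arrays alone and 5 with all 36 arrays, against 3. Cell cycle genes lower in ETP went to 2 with all 36 arrays, 13 with no fold threshold, 1 with treat, and 3 to 9 when an array was left out, against 4. Dendritic cell genes higher in ETP went to 5 with no fold threshold, 0 with treat, and 1 to 3 when an array was left out, against 3. Under treat, B lineage surface proteins lower in ETP went to 5 against 8, and T lineage factors higher in ETP to 3 against 5. Of 83 called named genes, 64 kept their call under each alternative that held them, and none of the 85 named genes reversed as a called gene. Bcl2l11 lost its call under 8 alternatives, S100a8 and Zfp36 under 7 each, Rag2 under 6 and Itgax under 5. The causes of these changes were not tested.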

Other observations

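Interferon-stimulated genes were higher in ETP as a group. They were gathered after their values were seen, so their counts carry no test of the group. Of 29 measured genes, 22 were called higher in ETP and none lower, beside 2.72% of all genes called higher, and their median difference was 1.58. The mean of the group lay between 7.77 and 7.92 in the ETP arrays and between 6.14 and 6.32 in the pro-B arrays. It averaged 7.04 in HSC, 6.79 in LSK, 6.84 in CLP, 7.48 in adult ETP and 6.59 in DN3. Because the genes were chosen with the ETP and pro-B values known, the places of those 2 populations in this order are no finding. Oasl2, of the 2-5A synthetase family, read 9.78, 9.78 and 9.39 in ETP, against 5.14, 5.56 and 5.68 in pro-B. Ifit1, which binds foreign RNA, read 8.78, 8.51 and 8.97 in ETP, against 5.11, 5.94 and 4.59 in pro-B (3.54 ± 0.52). Rtp4 was higher by 2.98 ± 0.25, the antiviral enzyme gene Rsad2 by 2.59 ± 0.23, the deconjugating protease gene Usp18 by 2.42 ± 0.26 and Mx1 by 1.96 ± 0.21. Ifi27l2a was higher by 0.75, under the 2-fold threshold. The Ifit1 and Rsad2 promoters with their interferon response letters are printed in the results.

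Some of the largest differences fall on genes that no list held, and they were also chosen after their values were seen. Angpt1, the ligand of the Tek receptor, read 8.95, 9.18 and 9.22 in ETP, against 5.10, 5.04 and 4.81 in pro-B (4.13 ± 0.25), while Tek itself differed by -0.30. The prostaglandin receptor gene Ptger3 was higher by 3.80 ± 0.30, the latrophilin relative Adgrl4 by 3.49 ± 0.22 and the guidance cue gene Sema3d by 3.55 ± 0.31. In the other direction the mitochondrial gene Chchd10 read 7.51, 8.29 and 7.49 in ETP, against 12.02, 12.02 and 12.05 in pro-B, and the kinase gene Sgk1 was lower by -4.31 ± 0.42. The lens filament gene Bfsp2 was lower by -4.09 ± 0.21 and the scaffold gene Akap12 by -4.43 ± 0.43.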
